A study of Mus musculus with 13 samples.

Results

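The proteasome subunit genes were followed through egg maturation in mice with and without the oocyte long noncoding RNA Sirena1. They were taken by symbol. A gene was included if its symbol began with Psm, followed by a letter from a to g and a number, and did not carry the pseudogene mark "-ps". The rule found 50 genes among the 54232 in the count table, and 4 pseudogene rows with 0 to 12 counts per library were left out. The 50 were sorted by role into 7 genes of the alpha ring, 7 of the beta ring, 5 tissue-restricted core subunits, 6 of the ATPase ring, 11 non-ATPase subunits of the regulatory particle, 7 assembly chaperones, and 6 activators and inhibitors. The remaining gene, Psmc3ip, encodes a meiotic recombination factor. It is not a proteasome subunit and was kept only because its symbol fits the rule.

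The proteasome is the main protease of the cytosol and nucleus for proteins tagged with ubiquitin. Its barrel-shaped core stacks outer rings of alpha subunits on inner rings of beta subunits, some of which carry the active sites. A regulatory particle binds the tagged protein, removes its ubiquitin and unfolds it with a ring of ATPases, while alternative activators can cap the core instead. In maturing oocytes proteasomal degradation, among it that of cyclin B and securin, is needed to pass through the first meiotic division. Fully grown oocytes are nearly silent in transcription and live on mRNA stored during growth.

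RNA was sequenced from 13 pools of 25 cells. MII Null eggs (n = 4) and MII WT eggs (n = 3) were arrested at metaphase II and collected 12 to 14 h after hCG. GV Null oocytes (n = 3) and GV WT oocytes (n = 3) were fully grown with an intact germinal vesicle, and were held in 0.2 mM IBMX, which keeps meiosis from resuming. Null females were Sirena1-/-: Cas9 had removed the promoter of the RNA in C57Bl/6 zygotes, and carriers were bred to C57BL/6NCrl before they were intercrossed. All 4 groups carry the strain label C57BL6/J, the protocol names C57Bl6/J or C57BL/6NCrl, and all females were superovulated. The sources used here do not state female ages, how many females made a pool or how many founders were used. Nothing says that pools came from separate females, so p-values measure the spread between pools, which may be partly technical.

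Libraries held 30867614 to 41285507 counts. Levels here and below are CPM, counts scaled to a common library total after each total was multiplied by its TMM factor, which sets most genes equal between libraries. On that scale 3 counts, the limit that a count of 0 allows, came to 0.0671 to 0.105 CPM. The proteasome genes took 0.248 to 0.364% of the counts. Sirena1, listed as C86187, averaged 41.3 ± 4.40 CPM in MII Null eggs against 4516 ± 221 CPM in MII WT eggs, and 24.8 ± 1.58 CPM in GV Null oocytes against 3004 ± 90.1 CPM in GV WT oocytes. Values after ± are SDs over the libraries of a group. The 12 oocyte markers were all detected in every library and summed to 10851 to 15425 CPM. The sum of 21 cumulus and granulosa markers was 597 CPM in GV Null replicate 2 and 247 CPM in GV Null replicate 3, against 92.9 to 125 CPM in the other 11 libraries. Every pool was listed with 0.2 pg of Renilla as a spike-in, but no spike-in count was available. A lower level therefore means a smaller share of the library, and less of 1 mRNA per cell cannot be told apart from more of the other mRNAs. RefSeq lists another gene over part of 14 members, which are Psma3, Psma4, Psma6, Psmb5, Psmb7, Psmc3ip, Psmc5, Psmd1, Psmd10, Psmd13, Psme1, Psme2b, Psme4 and Psmf1, and reads in the shared stretches may belong to either gene.

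The promoters of 4 members are shown because these genes moved in opposite directions between the stages. Psmb5 and Psmb6 encode active-site subunits of the beta ring and were lower in MII eggs, and Psme3 and Psme4 encode core activators and were higher. The sequences run from 250 bases before to 50 bases after a start of the gene in RefSeq on GRCm38.p6. They are Psmb5 at chr14:54617946-54618245 on the minus strand, and, on the plus strand, Psmb6 at chr11:70525107-70525406, Psme3 at chr11:101315963-101316262 and Psme4 at chr11:30771525-30771824. For Psmb5, Psme3 and Psme4 that start is the edge of the gene span given below. For Psmb6 it lies inside the span, which begins at 70525324, and the marked match of Psmb6 lies inside the span as well. Capitals mark 3 motifs on either strand: CCGGAAG, which ETS-family factors recognise, TGACNNNGC, the antioxidant-response type of site that Nfe2l1, the activator of proteasome genes, binds, and CCAAT.
Psmb5: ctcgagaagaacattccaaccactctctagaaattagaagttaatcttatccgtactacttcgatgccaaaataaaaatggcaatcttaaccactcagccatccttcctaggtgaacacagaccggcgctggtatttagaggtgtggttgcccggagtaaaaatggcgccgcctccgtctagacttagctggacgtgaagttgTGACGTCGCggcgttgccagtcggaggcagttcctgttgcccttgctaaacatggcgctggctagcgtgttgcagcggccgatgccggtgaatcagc
Psmb6: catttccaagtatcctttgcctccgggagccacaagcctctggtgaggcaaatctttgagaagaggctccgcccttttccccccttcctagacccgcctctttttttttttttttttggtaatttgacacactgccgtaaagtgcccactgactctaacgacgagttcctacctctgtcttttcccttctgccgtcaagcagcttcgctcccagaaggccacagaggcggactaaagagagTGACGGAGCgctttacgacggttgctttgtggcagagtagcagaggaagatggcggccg
Psme3: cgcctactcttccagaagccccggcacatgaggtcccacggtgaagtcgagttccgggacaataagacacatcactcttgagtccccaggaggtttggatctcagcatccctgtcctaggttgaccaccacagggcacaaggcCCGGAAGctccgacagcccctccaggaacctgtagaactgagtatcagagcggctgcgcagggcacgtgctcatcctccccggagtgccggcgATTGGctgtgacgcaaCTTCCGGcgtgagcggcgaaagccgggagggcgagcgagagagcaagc
Psme4: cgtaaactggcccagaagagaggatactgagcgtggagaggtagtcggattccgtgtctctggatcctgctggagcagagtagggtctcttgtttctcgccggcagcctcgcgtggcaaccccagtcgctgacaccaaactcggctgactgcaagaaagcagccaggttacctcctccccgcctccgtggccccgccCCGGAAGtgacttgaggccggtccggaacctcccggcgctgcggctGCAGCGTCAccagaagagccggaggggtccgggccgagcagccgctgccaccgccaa
No 2 marked matches overlap. Both active-site genes shown have a TGACNNNGC match and no CCGGAAG. Psmb7, which also encodes an active-site subunit, had no matched promoter. Psme3 has CCGGAAG on both strands and an inverted CCAAT, and Psme4 has one CCGGAAG and an inverted TGACNNNGC. Promoters of 42 of the 50 members were matched. CCGGAAG stood in 15 of them (35.7%), against 9.93% of the 27025 genes with a promoter in the table. It was in 9 of 14 regulatory-particle promoters and in 1 of 11 promoters of the alpha and beta rings, that of Psma6. TGACNNNGC stood in 6 of 42 (14.3%), against 14.0% of all genes, namely in Psmb5, Psmb6, Psmc6, Psmd9, Psmd12 and Psme4. Within the alpha and beta rings it stood in 2 of 11 promoters. CCAAT stood in 15 of 42 (35.7%), against 41.1% of all genes. Members lower in MII WT eggs had CCGGAAG in 9 of 27 promoters and members not called in 4 of 10, and of the 3 matched members that were higher, 2 had it. The motifs, among 9 that were counted, were picked after the levels had been seen, and a match is a string of letters, not a bound site.

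Most members differed between the stages of maturation. In Null cells 34 of the 47 members that could be tested were lower in MII eggs than in GV oocytes, 4 were higher and 9 were not called (edgeR quasi-likelihood test, Benjamini-Hochberg adjusted p under 0.05 over 20143 genes). Of all genes, 26.9% were lower and 22.1% were higher in that comparison. In WT cells 33 members were lower, 4 were higher and 10 were not called, where 22.8% of all genes were lower and 19.9% were higher. The median log2 fold change of the members was −0.90 in Null and −0.93 in WT cells, against −0.05 and 0.01 over all genes tested. The genotypes share no library in these 2 comparisons, but both were fitted in the same model with a shared estimate of the spread per gene. In both of them 31 members were lower and 4 higher. The share of all genes called in both is not given here, so these counts cannot be set against it. No member was called in opposite directions. A further 3 were called lower in Null cells alone and 2 in WT cells alone, but the difference between the genotypes passed the test for none. With libraries scaled by their totals alone, the median over all genes moved to −0.27 in Null and −0.19 in WT cells, and 41 and 38 members were lower while 4 were higher in each. The shares of all genes called under that scaling are not given here, so these counts cannot be set against them. Psmd11, Psmd12 and Psmf1, near 0 in Null cells as reported here, were called lower there under that scaling, at −0.21, −0.21 and −0.22 on the log2 scale.

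**Figure D1:**
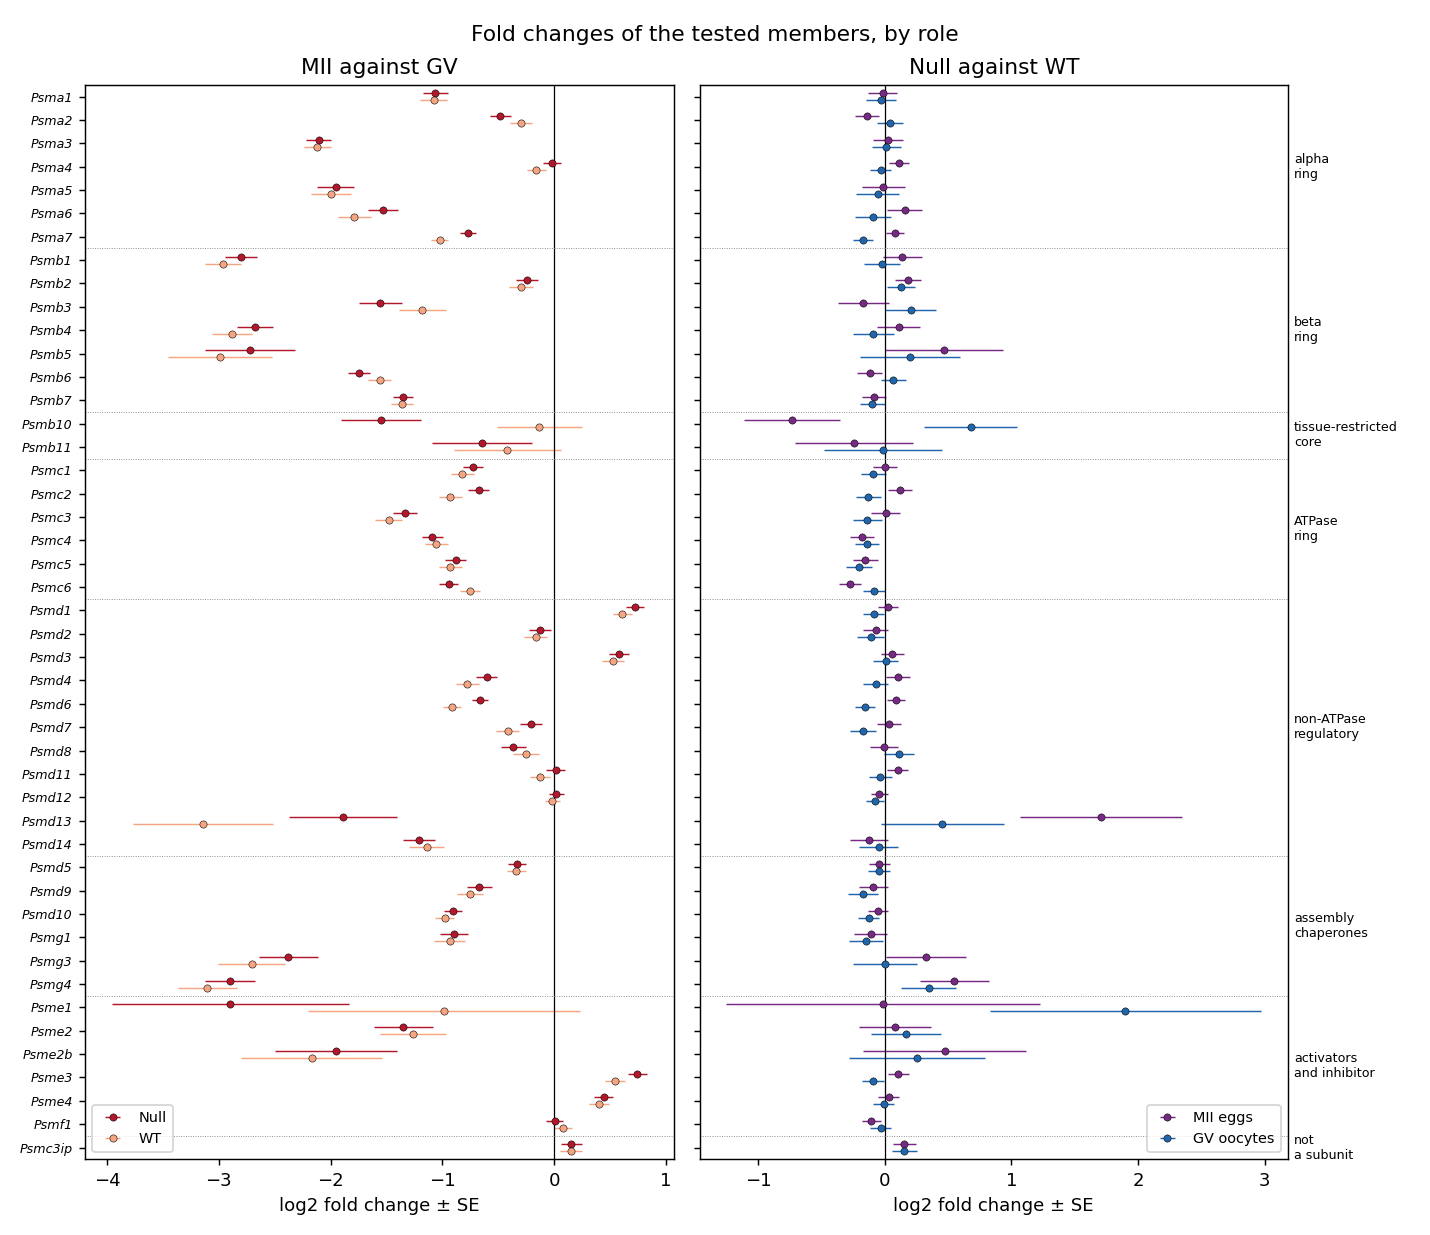
Log2 fold change ± SE of each tested member, grouped by role, with MII against GV on the left (Null above WT) and Null against WT on the right (MII above GV). Most members lie left of 0 in maturation, with Psmd1, Psmd3, Psme3 and Psme4 called higher to the right. Psmc3ip, Psmf1 and, in Null cells, Psmd11 and Psmd12 lie right of 0 without a call. Most genotype values lie near 0. Genes with few counts lie further off, as Psme1 at 1.90 in GV oocytes, and Psmd13 at 1.71 and Psmb10 at −0.73 in MII eggs. Psmg2 is left out because it had no count in MII WT eggs.

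The beta ring had the lowest median fold change of the classes. Its 7 genes summed to 172, 131, 123 and 152 CPM in MII Null eggs and 138, 139 and 132 CPM in MII WT eggs, against 352, 345 and 353 CPM in GV Null oocytes and 329, 326 and 371 CPM in GV WT oocytes. Every MII library was below every GV library, and the mean in MII eggs was 41.3% of that in GV oocytes for Null and 39.8% for WT. All 7 genes were called lower in WT cells and 6 in Null cells, with a median log2 fold change of −1.75 in Null and −1.56 in WT cells. The exception in Null cells was Psmb2, at 84.2 ± 14.96 CPM in MII eggs against 99.7 ± 4.96 CPM in GV oocytes (adjusted p = 0.055). It passed there with library totals (adjusted p = 0.00157), with the filter of 5 CPM (adjusted p = 0.00451) and without MII Null replicate 1, its highest egg library (log2 −0.40, adjusted p = 0.000198).

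Psmb5 (ENSMUSG00000022193, chromosome 14 from 54614120 to 54617995) encodes the subunit with the chymotrypsin-like active site. Its levels were 1.76, 1.57, 0.826 and 4.53 CPM in MII Null eggs and 1.62, 2.07 and 1.05 CPM in MII WT eggs, against 11.8, 16.4 and 15.1 CPM in GV Null oocytes and 11.7, 11.9 and 13.9 CPM in GV WT oocytes. All GV libraries were above all MII libraries, and the highest egg library was MII Null replicate 4. It fell 6.60-fold in Null cells (log2 fold change −2.72, SE 0.40, adjusted p = 0.00015) and 7.94-fold in WT cells (log2 −2.99, SE 0.46, adjusted p = 0.000264). Mir686 lies inside the gene in RefSeq, and without a known strand setting its reads could not be set apart.

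Psmb1 and Psmb4 encode beta-ring subunits without an active site. Psmb1 (ENSMUSG00000014769, chromosome 17 from 15475721 to 15498276) stood at 5.51, 5.60, 4.57 and 6.55 CPM in MII Null eggs and 5.29, 6.10 and 3.78 CPM in MII WT eggs, against 42.4, 35.8 and 38.0 CPM in GV Null oocytes and 37.6, 35.4 and 44.8 CPM in GV WT oocytes. The stages were far apart and the genotypes overlapped within each of them. The log2 fold change was −2.80 (SE 0.14, adjusted p = 5.62e-11) in Null and −2.96 (SE 0.16, adjusted p = 1.58e-10) in WT cells. Psmb4 (ENSMUSG00000005779, chromosome 3 from 94884324 to 94886958) had 13.9, 9.97, 8.61 and 13.0 CPM in MII Null eggs and 12.8, 11.1 and 7.90 CPM in MII WT eggs, against 79.4, 74.2 and 65.9 CPM in GV Null oocytes and 77.7, 74.6 and 81.3 CPM in GV WT oocytes. Again no egg library reached a GV library. The log2 fold change was −2.68 (SE 0.16, adjusted p = 2.38e-09) in Null and −2.88 (SE 0.18, adjusted p = 5.12e-09) in WT cells.

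The other beta genes had smaller fold changes. Psmb6 (ENSMUSG00000018286, chromosome 11 from 70525324 to 70527858), which carries the caspase-like site, averaged 20.8 ± 1.35 CPM in MII Null eggs against 70.0 ± 3.99 CPM in GV Null oocytes (adjusted p = 1.17e-10). In WT cells it averaged 22.6 ± 1.75 CPM in MII eggs against 66.8 ± 9.17 CPM in GV oocytes (adjusted p = 1.91e-09). Psmb7, which carries the trypsin-like site, had a log2 fold change of −1.35 in Null (SE 0.09, adjusted p = 1.66e-09) and −1.36 in WT cells (SE 0.10, adjusted p = 5.81e-09). All 3 constitutive active-site genes were thus lower in eggs. Psmb3 (ENSMUSG00000069744, chromosome 11 from 97703434 to 97713500), a subunit without an active site, averaged 5.45 ± 1.89 CPM in MII Null eggs against 16.1 ± 1.54 CPM in GV Null oocytes (adjusted p = 4.29e-06). In WT cells it averaged 6.17 ± 0.965 CPM in MII eggs against 14.0 ± 1.62 CPM in GV oocytes (adjusted p = 0.000216). Psmb2 in WT cells had the smallest called fall of the ring, 74.3 ± 3.21 CPM in MII eggs against 91.1 ± 3.599 CPM in GV oocytes (adjusted p = 0.0355), and it lost the call when any of the 6 WT libraries was left out (adjusted p from 0.0583 to 0.122).

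**Figure D2:**
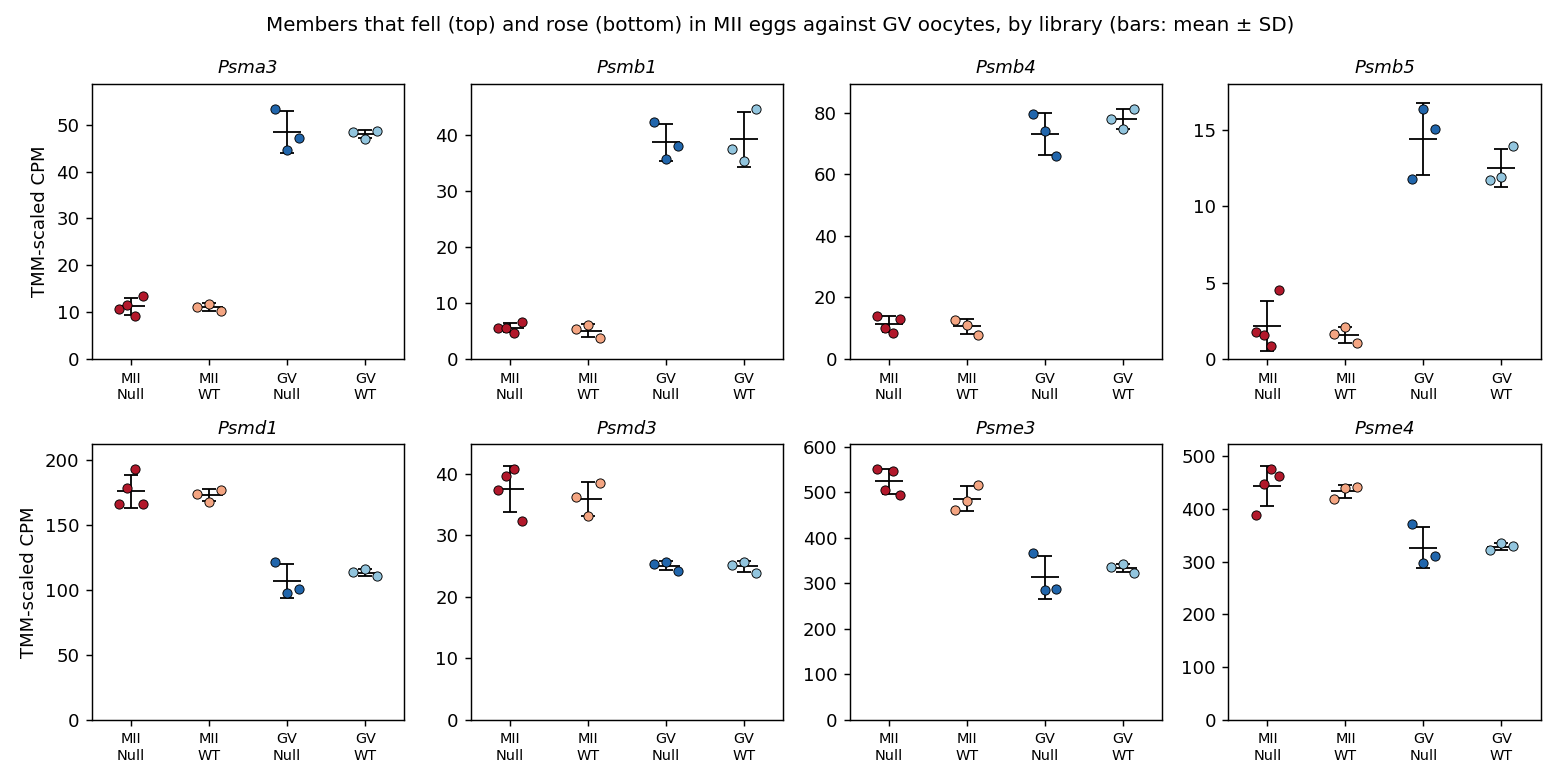
TMM-scaled CPM of 8 members in each of the 13 libraries (points), with the mean and SD of each group as bars; the top row holds members lower and the bottom row members higher in MII eggs. In each panel the MII libraries of both genotypes lie on one side of the GV libraries, as Psmb1 at 3.78 to 6.55 CPM in eggs against 35.4 to 44.8 CPM in GV oocytes.

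In the alpha ring, which gates the entry to the core, 6 of 7 genes were called lower. Its 7 genes summed to 419, 335, 333 and 358 CPM in MII Null eggs and 356, 371 and 379 CPM in MII WT eggs, against 699, 629 and 647 CPM in GV Null oocytes and 669, 648 and 714 CPM in GV WT oocytes. The egg mean was 54.8% of the GV mean in Null and 54.4% in WT cells, and no egg library reached a GV library. The same 6 of 7 genes were called lower in each genotype. Psma4 was the other: it stood at 45.5 ± 2.84 CPM in MII Null eggs and 42.1 ± 1.76 CPM in MII WT eggs, against 46.0 ± 3.64 CPM in GV Null oocytes and 47.0 ± 1.20 CPM in GV WT oocytes (adjusted p = 0.883 in Null and 0.143 in WT cells). Whether Psma4 passed depended on the processing. In WT cells it was called lower with library totals (log2 −0.36, adjusted p = 0.00176), with the filter of 5 CPM (−0.26, adjusted p = 0.0134), with only the groups compared in the fit (−0.20, adjusted p = 0.0275) and without MII Null replicate 1 (−0.21, adjusted p = 0.0469), and in Null cells with library totals (−0.24, adjusted p = 0.0145).

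Psma3 (ENSMUSG00000060073, chromosome 12 from 70969283 to 70995877) had the furthest fall of the alpha ring. Its levels were 10.6, 11.6, 9.24 and 13.5 CPM in MII Null eggs and 11.2, 11.8 and 10.2 CPM in MII WT eggs, against 53.4, 44.6 and 47.2 CPM in GV Null oocytes and 48.5, 47.0 and 48.6 CPM in GV WT oocytes. The stages did not overlap and the genotypes did. The log2 fold change was −2.11 (SE 0.11, adjusted p = 7.53e-11) in Null and −2.12 (SE 0.12, adjusted p = 3.07e-10) in WT cells. RefSeq places 3110056K07Rik over part of this gene, so some of its reads could belong there. Psma5 (ENSMUSG00000068749, chromosome 3 from 108256926 to 108279952) averaged 21.7 ± 5.92 CPM in MII Null eggs against 84.2 ± 8.36 CPM in GV Null oocytes (adjusted p = 2.03e-07), and 21.9 ± 2.77 CPM in MII WT eggs against 87.5 ± 5.71 CPM in GV WT oocytes (adjusted p = 5.33e-07). Psma6 (ENSMUSG00000021024, chromosome 12 from 55384222 to 55418459) averaged 32.3 ± 4.72 CPM in MII Null eggs against 93.8 ± 8.91 CPM in GV Null oocytes (adjusted p = 1.34e-07), and 29.0 ± 6.97 CPM in MII WT eggs against 100.1 ± 4.54 CPM in GV WT oocytes (adjusted p = 8.44e-08). Within the ring the fold changes that were called ran from −0.48 to −2.11 in Null and from −0.30 to −2.12 in WT cells, with Psma2 at the small end each time. The WT call of Psma2 was lost without GV WT replicate 1 or 3 or any 1 of the 3 MII WT libraries (adjusted p from 0.0515 to 0.108).

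The ATPase ring, which unfolds substrates and feeds them to the core, fell as a whole. All 6 genes were called lower in both genotypes, in a narrower range than the core, −0.68 for Psmc2 to −1.34 for Psmc3 in Null cells and −0.75 for Psmc6 to −1.48 for Psmc3 in WT cells. The summed level was 223, 195, 192 and 189 CPM in MII Null eggs and 217, 197 and 216 CPM in MII WT eggs, against 405, 341 and 347 CPM in GV Null oocytes and 409, 394 and 404 CPM in GV WT oocytes. The egg mean was 54.9% of the GV mean in Null and 52.2% in WT cells. Psmc3 (ENSMUSG00000002102, chromosome 2 from 91054016 to 91059438) had 11.3, 10.99, 9.30 and 9.32 CPM in MII Null eggs and 11.1, 9.95 and 9.55 CPM in MII WT eggs, against 26.8, 23.4 and 27.4 CPM in GV Null oocytes and 30.2, 25.6 and 29.6 CPM in GV WT oocytes. It fell below the whole GV range in every egg library (adjusted p = 1.44e-08 in Null and 1.5e-08 in WT cells).

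Of the non-ATPase subunits of the regulatory particle, 5 of 11 (45.5%) were called lower in each genotype, 2 (18.2%) were called higher and 4 were not called. Of all genes, 26.9% were lower and 22.1% higher in Null and 22.8% lower and 19.9% higher in WT cells, so the share called higher is near that of all genes. The summed level of the 11 subunits in MII eggs was 98.5% of that in GV oocytes for Null and 93.1% for WT. With library totals alone it was 84.3% for Null and 81.0% for WT. The stages then did not overlap, with at most 682 CPM in MII and at least 753 CPM in GV libraries. Psmd4, which binds ubiquitin chains, Psmd14, the metalloprotease that removes them, Psmd6, a scaffold subunit of the lid, and Psmd13 were lower in both genotypes. Psmd14 averaged 10.8 ± 2.47 CPM in MII Null eggs against 25.1 ± 1.03 CPM in GV Null oocytes (adjusted p = 1.99e-06). In WT cells it averaged 11.8 ± 1.89 CPM in MII eggs against 25.99 ± 1.85 CPM in GV oocytes (adjusted p = 1.25e-05). Psmd13, a lid subunit whose span overlaps Gm15542, had no more than 2.54 CPM in any library, and its fall has a wide error (log2 −1.89, SE 0.48, in Null and −3.14, SE 0.63, in WT cells). Without GV Null replicates 2 and 3 the Null value was −1.35 and did not pass (adjusted p = 0.155). The fifth was Psmd8 in Null cells (log2 −0.37, adjusted p = 0.0103) and Psmd7 in WT cells (log2 −0.42, adjusted p = 0.00333). In the other genotype the values were −0.25 for Psmd8 in WT and −0.21 for Psmd7 in Null cells, and neither was called. Whether each passed depended on the processing and on single libraries. With library totals or the filter of 5 CPM, Psmd7 also passed in Null cells (adjusted p = 0.00118 and 0.00614) and Psmd8 in WT cells (0.00662 and 0.0183), as Psmd8 did there with only the groups compared (0.00127). Without GV Null replicate 3 Psmd8 was lost (adjusted p = 0.051) and Psmd7 passed (0.0387) in Null cells, and without MII Null replicate 1 or 4 Psmd8 passed in WT cells (0.00393 and 0.0335). Psmd2, Psmd11 and Psmd12 were not called in either genotype as fitted here, but other settings called them lower. Psmd2 passed in both genotypes with library totals (adjusted p = 0.00432 in Null and 0.0058 in WT cells) and with the filter of 5 CPM (0.028 and 0.0307), in WT cells with only the groups compared (0.0166), and in Null cells without GV Null replicates 2 and 3 (0.0385). Psmd11 passed in WT cells with library totals (0.00308), the filter of 5 CPM (0.0261) and only the groups compared (0.0254), and Psmd12 passed there with library totals (0.0103). Psmd12 had a log2 fold change of 0.02 (95% interval −0.12 to 0.16) in Null and −0.02 (−0.16 to 0.13) in WT cells.

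Psmd1 and Psmd3 went the other way. Psmd1 (ENSMUSG00000026229, chromosome 1 from 86064619 to 86139295) encodes the large scaffold on which the ubiquitin receptor Adrm1 docks. It stood at 166, 179, 193 and 166 CPM in MII Null eggs and 174, 168 and 177 CPM in MII WT eggs, against 121, 97.6 and 101 CPM in GV Null oocytes and 114, 116 and 110.5 CPM in GV WT oocytes. All 7 egg libraries were above all 6 GV libraries. It rose 1.65-fold in Null (log2 0.72, SE 0.08, adjusted p = 8.53e-07) and 1.52-fold in WT cells (log2 0.61, SE 0.08, adjusted p = 1.42e-05). Htr2b lies within its span in RefSeq. Psmd3 (ENSMUSG00000017221, chromosome 11 from 98682554 to 98695978), a scaffold subunit of the lid, had 37.4, 39.6, 40.7 and 32.3 CPM in MII Null eggs and 36.3, 33.1 and 38.6 CPM in MII WT eggs, against 25.4, 25.7 and 24.2 CPM in GV Null oocytes and 25.2, 25.7 and 24.0 CPM in GV WT oocytes. Egg and GV libraries did not overlap. It rose 1.49-fold in Null (log2 0.58, SE 0.09, adjusted p = 4.99e-05) and 1.44-fold in WT cells (log2 0.53, SE 0.10, adjusted p = 0.000272).

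All 7 assembly chaperones were called lower in both genotypes. Psmg1 to Psmg4 work in pairs to build the alpha ring, and Psmd5, Psmd9 and Psmd10 hold ATPase pairs during assembly of the regulatory particle. The summed level was 174, 149, 138 and 153 CPM in MII Null eggs and 159, 162 and 158 CPM in MII WT eggs, against 253, 233 and 227 CPM in GV Null oocytes and 255, 248 and 254 CPM in GV WT oocytes, with no overlap of the stages. Psmg3 and Psmg4, partners in 1 of the pairs, fell furthest among those with counts in every library. Psmg4 (ENSMUSG00000071451, chromosome 13 from 34162964 to 34178172) had 0.865, 0.735, 0.603 and 1.09 CPM in MII Null eggs and 0.496, 0.620 and 0.571 CPM in MII WT eggs, against 5.57, 4.90 and 8.07 CPM in GV Null oocytes and 4.97, 4.26 and 5.33 CPM in GV WT oocytes. Every egg library was below every GV library. Its log2 fold change was −2.90 (SE 0.23, adjusted p = 8.7e-09) in Null and −3.10 (SE 0.26, adjusted p = 3.3e-08) in WT cells. Psmg3 fell by 5.20-fold in Null (adjusted p = 7.51e-07) and 6.52-fold in WT cells (adjusted p = 9.17e-07). Psmg2 was counted only 8, 0, 2 and 2 times in MII Null eggs and never in MII WT eggs, against 12, 33 and 31 times in GV Null oocytes and 11, 17 and 1 times in GV WT oocytes. Its fall in Null cells was called (adjusted p = 0.00838) and was lost without GV Null replicates 2 and 3 (adjusted p = 0.39). With 3 counts over the MII WT group as the floor, 0.0330 CPM, the pooled level of Psmg2 in GV WT oocytes was 7.03-fold higher, at 0.232 CPM. That ratio takes the GV WT level as exact, although GV WT replicate 3, at 0.0249 CPM, lay below the floor. Psmd5 had the smallest fall of the chaperones (log2 −0.34 in Null, adjusted p = 0.00194, and −0.34 in WT cells, adjusted p = 0.00386).

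Among the alternative caps of the core, the 2 that are not driven by interferon rose in eggs. Psme3 (ENSMUSG00000078652, chromosome 11 from 101316213 to 101323537) encodes the nuclear activator that opens the core without ATP or ubiquitin. It had 550.5, 505, 546 and 495 CPM in MII Null eggs and 461, 482 and 516 CPM in MII WT eggs, against 367, 285 and 286 CPM in GV Null oocytes and 336, 342 and 324 CPM in GV WT oocytes. The egg libraries were all above the GV libraries. It rose 1.68-fold in Null (log2 0.74, SE 0.08, adjusted p = 1.1e-06) and 1.46-fold in WT cells (log2 0.54, SE 0.09, adjusted p = 8.44e-05).

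Psme4 (ENSMUSG00000040850, chromosome 11 from 30771775 to 30881150) encodes the large single-chain activator known for its part in histone turnover in the male germ line. It had 389, 447, 475 and 462 CPM in MII Null eggs and 419, 439 and 443 CPM in MII WT eggs, against 371, 298 and 311 CPM in GV Null oocytes and 322, 335 and 329 CPM in GV WT oocytes. The lowest egg library, MII Null replicate 1, was still above the highest GV library, GV Null replicate 1. It rose 1.36-fold in Null (log2 0.44, SE 0.08, adjusted p = 0.000216) and 1.32-fold in WT cells (log2 0.40, SE 0.09, adjusted p = 0.00108). Without GV Null replicates 2 and 3, the libraries with the high cumulus marker sums, the rise in Null cells was 0.26 on the log2 scale and no longer passed (adjusted p = 0.0647, one GV Null library, assumed to vary like the other groups). Erlec1 lies partly over this gene in RefSeq. Psmf1, which inhibits the core, averaged 165 ± 14.4 CPM in MII Null eggs and 178 ± 9.87 CPM in MII WT eggs, against 165 ± 7.15 CPM in GV Null oocytes and 168 ± 8.22 CPM in GV WT oocytes. It was not called, with a log2 fold change of 0.01 (95% interval −0.15 to 0.16) in Null and 0.08 (−0.09 to 0.25) in WT cells.

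The interferon-inducible members had few counts. Psme2, a subunit of the inducible activator, averaged 2.37 ± 0.770 CPM in MII Null eggs against 6.07 ± 0.679 CPM in GV Null oocytes (adjusted p = 0.00043), and 2.25 ± 1.119 CPM in MII WT eggs against 5.40 ± 0.784 CPM in GV WT oocytes (adjusted p = 0.002). Psme2b, a close copy of Psme2 with which it may share reads, also fell (log2 −1.95 in Null, adjusted p = 0.00652, and −2.17 in WT cells, adjusted p = 0.0099). Its Null value did not pass without GV Null replicates 2 and 3 (−1.73, adjusted p = 0.104). Psme1, the partner of Psme2 and a neighbour that overlaps Emc9, was called lower in Null cells (adjusted p = 0.0416) and was not called in WT cells (adjusted p = 0.554), and the Null call was lost without GV Null replicate 2 (log2 −1.50, adjusted p = 0.261) and also when any 1 of 6 other libraries was left out. Of the tissue-restricted core genes, Psmb10 of the immunoproteasome averaged 0.303 ± 0.0511 CPM in MII Null eggs against 0.896 ± 0.131 CPM in GV Null oocytes, and 0.510 ± 0.104 CPM in MII WT eggs against 0.558 ± 0.159 CPM in GV WT oocytes. It was called lower in Null cells (adjusted p = 0.00157) and was not called in WT cells (adjusted p = 0.806). Without GV Null replicates 2 and 3 the Null value was −1.31 and did not pass (adjusted p = 0.0733). Psmb11, the thymus subunit, stood at 0.157 to 1.68 CPM in the 13 libraries and was not called in either genotype, though in Null cells it passed with the replicate block (log2 −1.21, adjusted p = 0.0314) and without MII Null replicate 4, its highest egg library (log2 −1.19, adjusted p = 0.0279). Psma8, the testis subunit, and Psmb8 and Psmb9, the other immunoproteasome genes, had too few counts to be tested. Psma8 had at most 0.236 CPM, and none in any WT library of either stage. Psmb8 was counted 0, 0, 0 and 2 times in MII Null eggs and never in MII WT eggs, against 0, 3 and 1 times in GV Null oocytes and 4, 1 and 7 times in GV WT oocytes. The non-subunit Psmc3ip was not called (log2 0.15 in Null and 0.15 in WT cells).

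**Figure D3:**
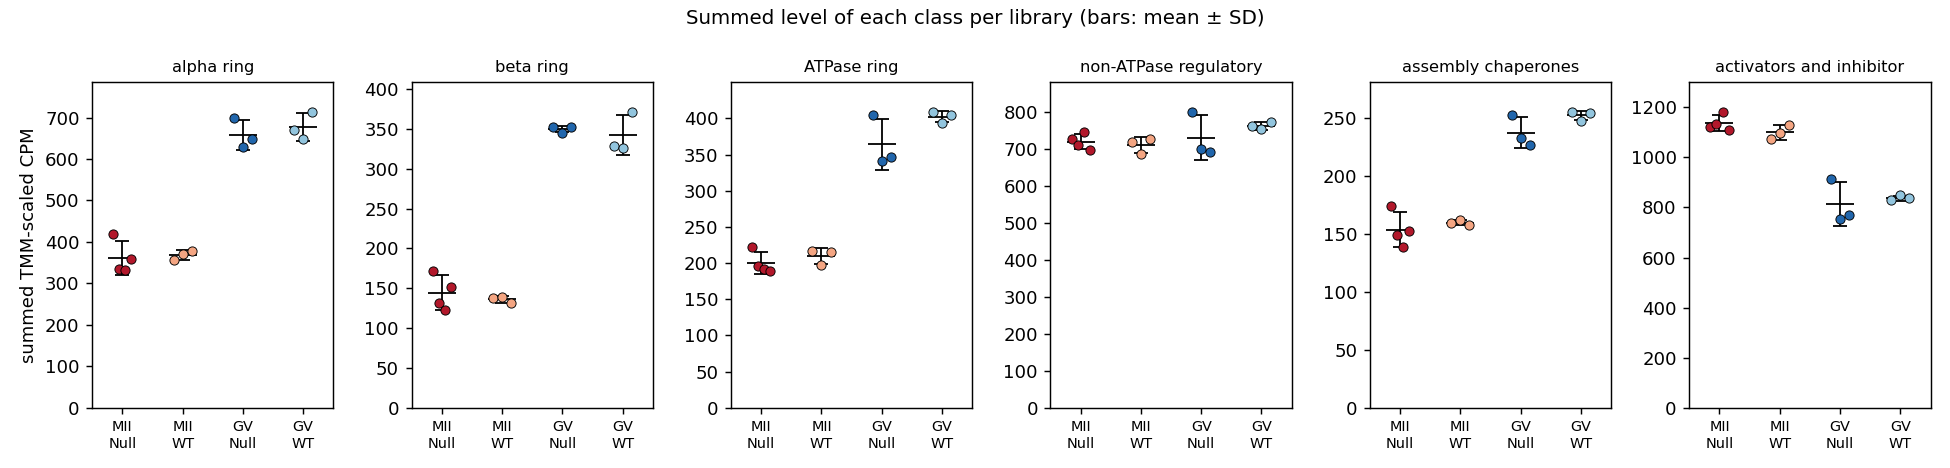
Summed TMM-scaled CPM of each class of proteasome gene in each of the 13 libraries (points), with the mean and SD of each group as bars and every axis starting at 0. The MII libraries are below the GV libraries for both core rings, the ATPase ring and the chaperones, and overlap them for the non-ATPase subunits. They are above them for the activators and inhibitor, with class means of 1136 CPM in MII Null eggs against 814 CPM in GV Null oocytes. Most of that sum is Psme3 and Psme4, at 524 and 443 CPM in MII Null eggs. The median gene of this class was lower in eggs, at a log2 fold change of −0.67 in Null and −0.45 in WT cells. Over all genes tested the medians were −0.05 and 0.01. With library totals alone, not shown here, the stages do not overlap for the non-ATPase subunits.

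Loss of Sirena1 was tested in the same model at each stage. In GV oocytes no member of 47 was called between Null and WT, where 0.0546% of all genes were called. With edgeR 1 of the 47 members had an unadjusted p under 0.05, where 1342 of all 20143 genes did. The smallest adjusted p of a member was 0.725, and DESeq2 also called 0. The median log2 fold change of the members was −0.03, against 0.02 over all genes tested. Among the 40 members that averaged at least 5 CPM in some group, the fold changes ran from −0.20 for Psmc5 to 0.35 for Psmg4, and the widest 95% intervals reached −0.66 and 1.07. The median size of their changes, 0.0937 on the log2 scale, compared with 0.0918 for all 11085 genes at that level.

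The smallest p in GV oocytes was that of Psma7, an alpha-ring subunit, with 114, 107 and 104 CPM in Null against 123, 116 and 127 CPM in WT oocytes. The groups did not overlap, at a log2 fold change of −0.17 (95% interval −0.33 to −0.01, adjusted p = 0.725). Psmd6 had 63.5, 59.9 and 61.2 CPM in Null against 70.2, 66.8 and 69.1 CPM in WT oocytes, again without overlap (log2 −0.16, adjusted p = 0.755). Psmc5, an ATPase whose span also holds Gm23645, had 134, 105 and 107 CPM in Null against 136, 129.9 and 132 CPM in WT oocytes, and here replicate 1 of Null lay among the WT libraries (log2 −0.20, adjusted p = 0.757). Without Null replicates 2 and 3 the value was 0.01. The same 2 libraries were lowest for the summed ATPase ring, and they are the ones with the high cumulus marker sums, whose part in these values was not tested. Psmg2 had a log2 fold change of 1.51 from 1 to 33 counts per library (adjusted p = 0.778), and 0.34 without those 2 libraries. Of the active-site genes, Psmb5 had a log2 fold change of 0.20 (95% interval −0.66 to 1.07), Psmb6 of 0.07 (−0.14 to 0.28) and Psmb7 of −0.10 (−0.30 to 0.11).

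The largest fold change between the genotypes in GV oocytes was that of Psme1, the other subunit of the interferon-inducible activator, and it rested on 1 library. Psme1 was counted 18, 185 and 44 times in Null and 27, 28 and 17 times in WT oocytes. Replicate 2 of Null stood far above all others, and replicate 1 of Null was within the WT range. The log2 fold change was 1.90 (SE 1.07, adjusted p = 0.807), and without replicate 2 it was 0.51. Psmb9, an immunoproteasome subunit, was counted 0, 18 and 9 times in Null and 3, 0 and 0 times in WT oocytes, and in no MII egg. Replicate 2 of Null also held 163 counts of Cd74 and 267 of Lyz2, markers of antigen-presenting and myeloid cells. All 8 leukocyte markers were detected in it and summed to 23.1 CPM, against 4.97 to 7.68 CPM with 0 to 3 of them at 0 in the other libraries. Not every marker was highest there. Cd68 stood at 3.35 CPM, against 3.64 CPM in MII Null replicate 1, and Cd3e at 0.0524 CPM, against 0.313 CPM in GV WT replicate 1. The cumulus and granulosa markers were highest in the same library too, at a sum of 597 CPM. The part of either marker set in the Psme1 value was not tested.

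**Figure D4:**
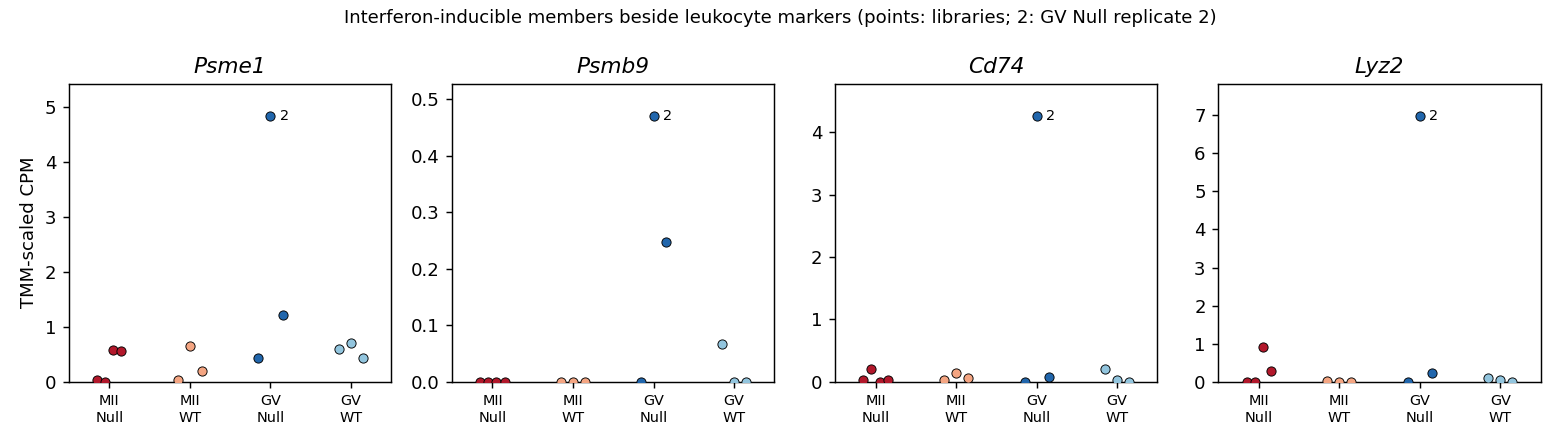
TMM-scaled CPM of Psme1 and Psmb9 beside the leukocyte markers Cd74 and Lyz2 in each of the 13 libraries (points). GV Null replicate 2, marked 2, is the highest library in all 4 panels, with 4.84 CPM of Psme1 where no other library exceeds 1.21 CPM.

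In MII eggs no member was called between Null and WT either, and 0.0546% of all genes were called. With edgeR 3 of the 47 members had an unadjusted p under 0.05, where 1280 of all 20143 genes did. The smallest adjusted p of a member was 0.577, and DESeq2 called 0. The median log2 fold change was 0.02, against 0.01 over all genes. The 40 members of at least 5 CPM ran from −0.27 for Psmc6 to 0.55 for Psmg4, with 95% intervals reaching −0.60 and 1.49. The median size of their changes was 0.103 on the log2 scale, somewhat above the 0.0808 of all 11085 genes at that level. Psmc6, an ATPase, had 20.9, 21.1, 20.04 and 22.1 CPM in Null against 24.4, 24.1 and 27.9 CPM in WT eggs. The groups did not overlap, at a log2 fold change of −0.27 (95% interval −0.45 to −0.10, adjusted p = 0.577). Psmg4 had 0.865, 0.735, 0.603 and 1.09 CPM in Null against 0.496, 0.620 and 0.571 CPM in WT eggs, with 1 Null library inside the WT range (log2 0.55, adjusted p = 0.809). Psmd13 had 0.131, 0.490, 0.318 and 0.994 CPM in Null against 0.165, 0.207 and 0.0635 CPM in WT eggs and the groups overlapped (log2 1.71, adjusted p = 0.718). Psmg2, with 0 to 8 counts per Null library and none in WT eggs, did not pass either (adjusted p = 0.741).

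Among the active-site genes in eggs, Psmb5 had a log2 fold change of 0.47 (95% interval −0.55 to 1.49). That value turned to −0.15 without Null replicate 4, its highest library. Psmb6 had −0.12 (−0.32 to 0.09) and Psmb7 −0.09 (−0.29 to 0.11). The effect of genotype differed between the stages for no member, where 0.00496% of all genes were called. With edgeR 3 of the 47 members had an unadjusted p under 0.05, where 681 of all 20143 genes did. The smallest adjusted p of a member was 0.999, and DESeq2 called 0. The 2 with the smallest p were Psmb10, with a difference of −1.41 on the log2 scale (95% interval −2.51 to −0.31), and Psma7, with 0.25 (0.03 to 0.47).

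Genes that serve the proteasome without carrying a Psm symbol were taken from a list of 31, of which 30 were in the table and tested; Paaf1 was not analysed here. No gene of the list was called between Null and WT in MII eggs (smallest adjusted p = 0.633, with 4 at an unadjusted p under 0.05) or in GV oocytes (0.834, with 0), and DESeq2 called 0 at each stage. Of all 20143 genes, 1280 in MII eggs and 1342 in GV oocytes had an unadjusted p under 0.05. In maturation 8 were higher, 12 lower and 10 not called in Null cells, and 8 higher, 13 lower and 9 not called in WT cells, with median log2 fold changes of −0.14 and −0.16, against −0.05 and 0.01 over all genes tested. The shares of the list were 26.7% higher and 40.0% lower in Null cells, where 22.1% and 26.9% of all genes were, and 26.7% higher and 43.3% lower in WT cells, where 19.9% and 22.8% were. The share called higher is near that of all genes. Genes of the list named here were picked after their values were seen. The ubiquitin genes Ubb and Rps27a were called lower in both genotypes. Ubb, which encodes a chain of ubiquitins, averaged 416 ± 60.9 CPM in MII Null eggs against 1818 ± 108 CPM in GV Null oocytes, and 361 ± 15.8 CPM in MII WT eggs against 1788 ± 141 CPM in GV WT oocytes. Its log2 fold change was −2.13 in Null (adjusted p = 1.03e-11) and −2.31 in WT cells (adjusted p = 2.03e-11). Rps27a, which encodes a ubiquitin fused to a ribosomal protein and has near-identical copies in the genome, averaged 0.883 ± 0.987 CPM in MII Null eggs against 20.2 ± 1.86 CPM in GV Null oocytes, and 0.439 ± 0.232 CPM in MII WT eggs against 16.3 ± 1.56 CPM in GV WT oocytes.

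Other genes of the list on the falling side were Sem1, the smallest lid subunit (log2 −2.74 in Null and −2.88 in WT cells), the segregase Vcp (−1.31 and −1.56) and the ubiquitin receptor Adrm1 (−0.51 and −0.50). On the rising side were Nfe2l1, the transcription factor of proteasome genes (0.49 in Null and 0.38 in WT cells), Ddi2, the protease that activates it (0.48 and 0.42), the shuttle Ubqln1 (0.55 and 0.57) and the ubiquitin-activating enzyme Uba1 (0.51 and 0.44). All of these passed in both genotypes. Pomp, the chaperone of core maturation, was not called (−0.14, adjusted p = 0.239, in Null and 0.00, adjusted p = 0.983, in WT cells), nor were the proteasome-bound deubiquitinases Usp14 and Uchl5.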

How the data were processed

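The authors deposited raw counts of reads per gene for 13 libraries, not normalized. Per the labels' protocols, libraries were made with the NuGEN Ovation V2 system and read as single ends. The submitters' processing notes list STAR 2.5.3a, bedtools 2.26.0 and GRCm38.p6 as the build. No source used here states how reads were counted, whether strand was used or how multiply matching reads were treated, so overlapping genes and close copies are uncertain. Of 54232 gene IDs, 54079 had a symbol in a table of names. Coordinates and promoters are RefSeq's on GRCm38.p6.

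The test was that of edgeR 4.0.16, run in R 4.3.3 (TMM scaling, filterByExpr by group, robust quasi-likelihood test, two-sided) over all 13 libraries and 20143 genes, with Benjamini-Hochberg adjustment over all of them at 0.05. The fit was tested on simulated data. Intervals are 95% intervals of the fitted log2 fold change. Libraries held 30867614 to 41285507 counts, and floors of 3 counts cover counting error only. Replicates of a group differed by 5.03 to 34.3 in chi-square per degree of freedom, so none was a duplicate. Alternatives were RLE scaling, library totals, no filter, a filter of 5 CPM in 3 libraries, DESeq2 1.42.0, the groups of a comparison alone, a replicate block, and leaving out libraries.

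Members and lists were chosen with earlier results of these data known. Members described singly were, per genotype comparison, the 4 with the smallest p, for the difference the 2 with the smallest, in maturation up to 8 per direction with the largest called change and at least 5 CPM, and the tissue-restricted, active-site, activator and chaperone genes. Other members named were chosen after their values were seen.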

Additional observations from a re-analysis of the deposited data

Results flagged for a closer look

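Psmd4, which encodes a ubiquitin receptor of the regulatory particle, stood at 51.5 CPM in replicate 4 of the MII Null eggs, where the other 3 libraries of the group lay between 58.7 and 59.8 CPM. The gap to the nearest library made up 0.872 of the range of the group, above Dixon's critical value for 4 samples. It was the only 1 of 57 sets of values (47 members and 10 sums) in which a library stood apart by this measure, and chance alone flags about 1 in 20. Psmd4 was called lower in MII eggs of both genotypes with and without this library.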

How the results depend on the processing

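Across up to 22 alternatives per comparison, 33 to 45 members were called between the stages in Null cells and 35 to 42 in WT cells. The shares of all genes called under the alternatives are not given here. No member was called between Null and WT in MII eggs or for the difference between stages under any alternative run. In GV oocytes 1 member, Psme1, was called without a filter on low counts, and 0 under the other alternatives. The median log2 fold change between the stages was −1.12 in Null and −1.13 in WT cells with library totals only, −1.02 in WT cells with the 5 CPM filter, and in Null cells −0.98 without GV Null libraries 2 and 3 and −1.04 when MII Null library 4 was also left out. Leaving out single libraries moved it between −0.97 and −0.83 in Null and between −0.98 and −0.88 in WT cells. In GV oocytes the Null-to-WT median was 0.038 without GV Null libraries 2 and 3, 0.036 without MII Null library 4 as well, and −0.12 to −0.0080 with single libraries left out. For the difference between stages it was −0.026, −0.016 and 0.013 to 0.14 under the same changes. The summed CPM of the members with library totals only was 2558 in MII Null, 2541 in MII WT, 3463 in GV Null and 3551 in GV WT libraries.

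No called log2 fold change turned its sign under an alternative run, and the values that did had not passed the test. Without GV Null libraries 2 and 3, and without MII Null library 4 as well, the Null-to-WT values in GV oocytes were 0.011 and 0.0098 for Psmc5, −0.090 and −0.092 for Psmb5, and −0.38 and −0.38 for Psme1. In MII eggs Psmb5 stood at −0.17 with the replicate block, at −0.17 without all 3 of those libraries, and at −0.15 to 0.75 with single libraries left out. Between the stages in Null cells, library totals only gave −0.21 for Psmd11, −0.071 for Psmc3ip, −0.21 for Psmd12 and −0.22 for Psmf1, of which Psmd11, Psmd12 and Psmf1 then passed. In WT cells that setting gave −0.048 for Psmc3ip and −0.12 for Psmf1. The 5 CPM filter gave −0.11 for Psmd11, −0.11 for Psmd12 and −0.12 for Psmf1 in Null cells, and −0.021 for Psmf1 in WT cells. Without a filter Psma4 stood at 0.0032 in Null cells, and with only the groups compared Psmf1 stood at −0.0016. Without GV Null libraries 2 and 3 the Null values were −0.22 for Psmd11, −0.10 for Psmd12 and −0.047 for Psmf1, and without MII Null library 4 as well −0.20 for Psmd11 and −0.097 for Psmd12. With single libraries left out the values ran from −0.064 to 0.057 for Psma4, −0.19 to 0.011 for Psmd2, −0.065 to 0.15 for Psmd11, −0.030 to 0.089 for Psmd12 and −0.063 to 0.040 for Psmf1 in Null cells, and from −0.066 to 0.013 for Psmd12 in WT cells. The causes were not tested.

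Samples that share a replicate number deviated together in only 1 of 12 pairs by a correlation over 0.1 (range −0.23 to 0.15). These values gave no sign that the numbers pair the pools. With so few pools per group, and no pairs of unlike numbers set beside them, they cannot exclude a pairing. With a replicate block 0 members were called between genotypes at either stage, 39 between the stages in Null and 37 in WT cells. Depth limits Psma8, Psmb8 and Psmb9, which had too few counts to test, and Psmg2, Psmb10, Psmd13, Psme1 and Psme2b, whose errors are wide.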
